A study of Oryza sativa with 4 samples.

Results

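The homeobox-leucine zipper (HD-Zip) genes described here are the 4 rows of the deposited table with the identifiers OS04G0569100 (*ROC4*), OS03G0198600 (*HOX12*), OS10G0561800 (*HOX1*) and OS03G0231150 (described as *HOX19*). They were taken by identifier, out of 287 genes in the table, and the word homeobox-leucine zipper stands in the description of each. The table holds only genes that the authors had called different between the genotypes, so a difference in these 4 genes was fixed by the table itself and is given below as a description without a test. In the OX*OsAFB6* mutant, *ROC4* had a 3.29-fold higher mean than in the control plants. *HOX12*, *HOX1* and *HOX19* had lower means, by 2.48-fold, 2.97-fold and 5.63-fold.

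HD-Zip proteins are transcription factors found in plants, in which a DNA-binding homeodomain is followed directly by a leucine zipper that lets the proteins pair. They are sorted into classes I to IV. Class IV proteins, the GL2 type, also carry a lipid-binding START domain and act mainly in the epidermis. Class II proteins are largely repressors that are known from *Arabidopsis* for their part in shade and auxin responses, and class I proteins are known for their part in growth and in responses to water deficit. *ROC4* belongs to class IV, *HOX12* to class I, and *HOX1* and *HOX19* to class II.

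Young panicles shorter than 1 mm, at the change from vegetative to reproductive growth, were taken from 80 OX*OsAFB6* plants and 80 control plants, and each group was split into 2 libraries. OX*OsAFB6* is a single transgenic line in the japonica variety Zhonghua 11. It carries a *CCT05* overexpression vector inserted upstream of *OsAFB6*, and overexpresses this gene, whose F-box protein binds auxin. The labels name the controls negative plants from the transgenic event that gave the mutant, whereas the methods describe plants regenerated from calli that took up no foreign DNA. As both libraries of a group came from one collection of panicles, their spread does not cover separate growths. The paper reports that the mutant heads later than its controls under long and short days. Panicles of like length may therefore come from plants of unlike age. Plant ages and sampling days are not given, so genotype cannot be told apart from age or sampling day. In RNA from whole panicles, fewer cells that express a gene and less RNA of it per cell cannot be told apart.

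The table gives 1 mean per genotype. Each value turned out to be an average of 2 whole read numbers, each divided by a size factor, and so the reads behind it were recovered. In the table as a whole 284 of 287 genes were resolved in both genotypes, and all 4 HD-Zip genes were among them. The size factors were 1.01 for OX-A, 1.14 for OX-B, 0.887 for Con-A and 0.977 for Con-B, where OX stands for OX*OsAFB6*, Con for the control plants, and A for the library with the lower size factor. The letters are not the replicate numbers of the labels. The 284 genes held between 196812 and 388885 reads per library, and the total depth is unknown. Of the gene behind the overexpression, no row carries the name *OsAFB6*. The only row described as an auxin signaling F-box gene, OS02G0178100, had a mean of 49357 in OX*OsAFB6* panicles and of 15747 in control panicles, but its identifier places it on chromosome 2 while its description holds a locus name of chromosome 3, so it checks the genotype labels only in part. Genes of the young panicle meristem were present in every library. *LAX*, *MADS34* and *FL* had normalized read counts of at least 67.6. All 3 were themselves listed as different and had the higher mean in OX*OsAFB6*, as did 20.2% of all listed genes. Their presence therefore does not show that the genotypes were at the same stage.

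*ROC4* lies on chromosome 4. Genes of its type were first described in rice by their expression in the outermost cell layer. Its reads numbered 609 in OX-A and 647 in OX-B, against 120 in Con-A and 215 in Con-B. Divided by the size factors, these gave normalized read counts of 603 for OX-A, 567 for OX-B, 135 for Con-A and 220.1 for Con-B. OX-A and OX-B both stood above Con-A and Con-B, and lay closer to each other than Con-A did to Con-B. The mean was 585 for OX*OsAFB6* and 178 for the controls, a log2 ratio of 1.72. The exact binomial 95% interval of the ratio of summed reads, which covers counting error only here and below, ran from 2.88-fold to 3.68-fold. OX-B and Con-B, the nearest libraries of opposite genotype, differed 2.58-fold, and OX-A and Con-A, the farthest, 4.46-fold.

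*HOX12* lies on chromosome 3. In rice it is known as a direct activator of *EUI1*, which encodes a gibberellin-deactivating enzyme, and through it as a regulator of panicle exsertion. Its reads numbered 437 in OX-A and 1019 in OX-B, against 1535 in Con-A and 1515 in Con-B. As normalized read counts these were 433 for OX-A, 893 for OX-B, 1730.1 for Con-A and 1551 for Con-B. OX-A and OX-B both stood below the controls, but OX-B far above OX-A. The means were 663 and 1641, a log2 ratio of -1.31, and the counting interval ran from 2.27-fold to 2.58-fold lower. This interval is narrower than the difference between OX-A and OX-B, so reads did not limit the precision of *HOX12*. Between OX-B and Con-B, the nearest libraries, the difference was 1.74-fold. The log2 ratio was -1.92 without OX-B and -0.88 without OX-A.

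*HOX1* lies on chromosome 10. It encodes a repressor that is known in rice from the commitment of provascular cells and from polar auxin transport. Its reads numbered 104 in OX-A and 142 in OX-B, against 279 in Con-A and 352 in Con-B. As normalized read counts these were 103 for OX-A, 124 for OX-B, 314 for Con-A and 360.3 for Con-B. The libraries of each genotype lay closer to each other than to those of the other genotype, and the genotypes did not overlap. The means were 114 and 337, a log2 ratio of -1.57, with a counting interval from 2.55-fold to 3.44-fold lower. The paper already names *HOX1* among the auxin-related genes that were downregulated in the mutant, from the same sequencing.

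*HOX19*, like *HOX12*, lies on chromosome 3, and the table gives it a description but no gene name. Its reads numbered 90 in OX-A and 135 in OX-B, against 557 in Con-A and 527 in Con-B. As normalized read counts these were 89.1 for OX-A, 118 for OX-B, 628 for Con-A and 539 for Con-B. Even OX-B and Con-B, the nearest libraries of opposite genotype, differed 4.56-fold. The means were 104 and 584, a log2 ratio of -2.49, and the counting interval ran from 4.81-fold to 6.45-fold lower. It had the largest ratio of the 4 genes in either direction.

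**Figure D1:**
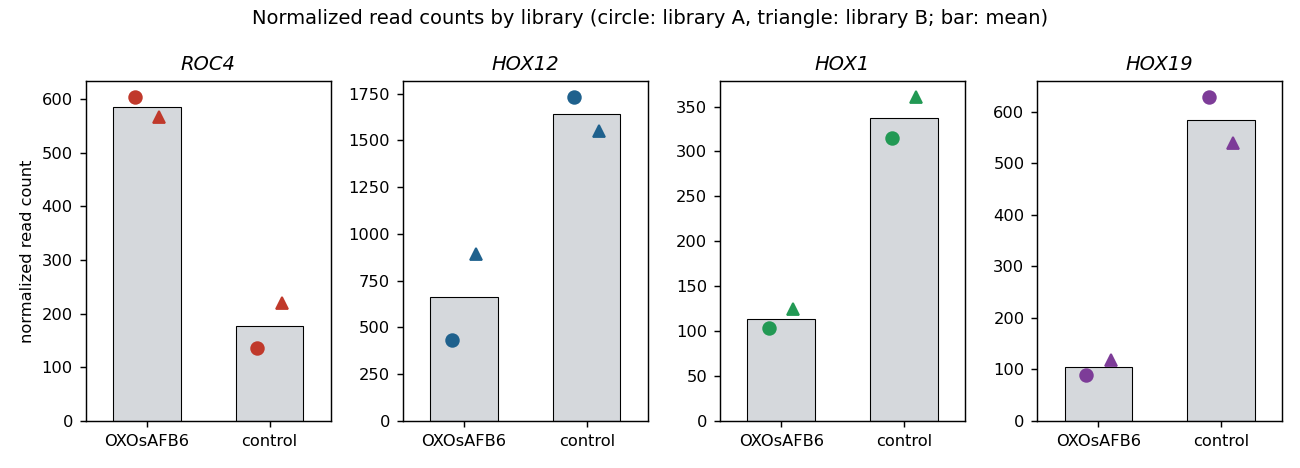
Normalized read count (reads divided by the size factor) of the 4 HD-Zip genes in OX*OsAFB6* and control panicles, on axes that start at 0. Bars are the authors' means, circles library A and triangles library B. *ROC4* was higher in OX-A and OX-B (603 and 567) than in Con-A and Con-B (135 and 220.1), the other genes were lower, and for *HOX12* OX-A and OX-B stood apart at 433 and 893.

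The direction of the 4 genes has to be read against the table they come from. Of all 287 listed genes, 20.2% had the higher mean in the mutant and 79.8% the lower mean, and 1 and 3 of the 4 HD-Zip genes did. In all 4 genes the libraries of the genotypes did not overlap, and the same held for 100% of the 284 resolved genes. With 2 libraries against 2, an exact permutation test cannot give a two-sided p below 0.333. The median log2 ratio of the 4 genes was -1.44, beside -1.71 over all listed genes. By size of ratio, *ROC4* was the 31st of the 58 genes with a higher mean, close to their median log2 ratio of 1.82. Among the 229 genes with a lower mean, whose median log2 ratio was -1.84, 3.06% had a smaller difference than *HOX12*, 24.9% a smaller one than *HOX1* and 76.9% a smaller one than *HOX19*. *HOX12* was therefore among the listed genes nearest to no change, where the gene nearest to 0 had a log2 ratio of -1.24, and *HOX19* was among those with the larger differences.

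**Figure D2:**
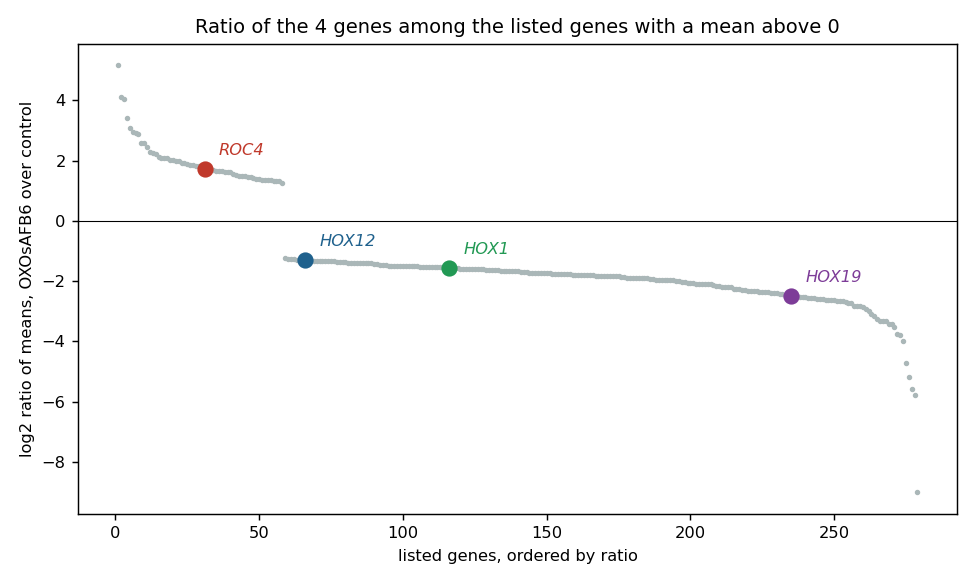
Log2 ratio of the means, OX*OsAFB6* over control, for each listed gene that has reads in both genotypes, ordered from highest to lowest. Grey points are the other listed genes. *ROC4* sits at 1.72 in the middle of the higher genes, *HOX12* at -1.31 at the start of the lower genes, *HOX1* at -1.57 and *HOX19* at -2.49.

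How well the libraries of one genotype agreed differed among the 4 genes. For *HOX12*, OX-A and OX-B differed 2.06-fold, more than in 93.0% of the other genes with reads in OX-A and OX-B, while Con-A and Con-B differed 1.12-fold. In *ROC4* the order was the opposite. OX-A and OX-B differed 1.06-fold, and Con-A and Con-B 1.63-fold, more than in 86.5% of the other genes with reads in Con-A and Con-B. For *HOX1*, OX-A and OX-B differed 1.21-fold, more than in 49.3% of the other genes, and Con-A and Con-B 1.15-fold, more than in 30.2%. For *HOX19* the differences were 1.33-fold and 1.16-fold, more than in 64.7% and 32.7% of the other genes. Over the 8 pairs of libraries, the counting interval of the ratio did not hold equality for 5 pairs, namely both pairs of *HOX12*, both of *HOX19* and the control pair of *ROC4*. With the size factors taken as exact, the libraries of these pairs differed by more than counting error. The share of all listed genes with such an interval was not computed, and the interval narrows as reads increase. The gap between Con-A and Con-B in *HOX12* was larger than in only 23.1% of the other genes. For OX-A over OX-B in *HOX19*, the interval nearly reached equality, at 0.571 to 0.991.

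Ratios of reads between 2 of the genes within a library do not depend on size factors, and they compare ratios between libraries rather than levels between genes, because the reads were not divided by length. Per read of *HOX12*, *ROC4* had 1.39 reads in OX-A and 0.635 in OX-B, against 0.0782 in Con-A and 0.142 in Con-B. Per read of *HOX1*, it had 5.86 reads in OX-A and 4.56 in OX-B, against 0.430 in Con-A and 0.611 in Con-B. Per read of *HOX19*, it had 6.77 reads in OX-A and 4.79 in OX-B, against 0.215 in Con-A and 0.408 in Con-B. The balance of *ROC4* and *HOX19* thus differed between the genotypes by at least 11.7-fold whichever libraries were set against each other, and by 18.5-fold between the ratios of the means. Much of this size was fixed by the selection of the listed genes. The smallest absolute log2 ratio was 1.26 among those with a higher mean and 1.24 among those with a lower mean.

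The 3 genes with lower means did not have like ratios. Per read of *HOX19*, *HOX12* had 4.86 reads in OX-A and 7.55 in OX-B, against 2.76 in Con-A and 2.87 in Con-B. Per read of *HOX19*, *HOX1* had 1.16 reads in OX-A and 1.05 in OX-B, against 0.501 in Con-A and 0.668 in Con-B. In neither pair did the genotypes overlap, so the difference of *HOX19* between genotypes was larger than that of *HOX12* by 1.69-fold to 2.74-fold and than that of *HOX1* by 1.57-fold to 2.31-fold over the pairs of libraries. *HOX12* and *HOX1* could not be told apart in this way. Per read of *HOX1*, *HOX12* had 4.20 reads in OX-A and 7.18 in OX-B, against 5.50 in Con-A and 4.30 in Con-B, and these values overlapped. The other 5 pairs did not overlap. For the 3 pairs with *ROC4* this was fixed beforehand, since one gene of the pair was higher and the other lower in both OX libraries. The pairs share genes and libraries and are not independent of each other. The share of non-overlapping pairs among other listed genes was not computed, so the separation is not shown to be particular to these genes.

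**Figure D3:**
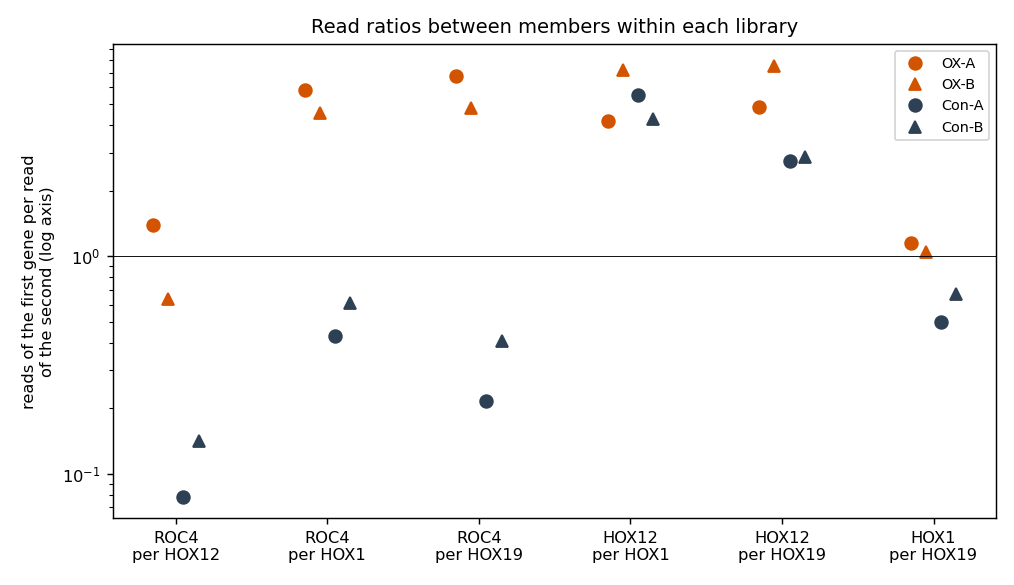
Reads of one HD-Zip gene per read of another within each library, on a log axis, for the 6 pairs of genes. Orange marks OX*OsAFB6* and dark blue the control plants, circles are library A and triangles library B. The 3 pairs with *ROC4* are far apart between genotypes (6.77 and 4.79 against 0.215 and 0.408 per read of *HOX19*), and *HOX12* per *HOX1* overlaps.

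The order of the libraries within a genotype was the same for *HOX12* and *HOX19*. Both were higher in OX-B than in OX-A, and higher in Con-A than in Con-B. *ROC4* had the reverse order in both genotypes, and *HOX1* was higher in OX-B and Con-B. The order of *HOX12* and *HOX19* was shared by 97 of 227 resolved genes with a lower mean (42.7%), and the order of *ROC4* by 24 of 57 genes with a higher mean (42.1%). The 8 listed genes of green tissue, which encode parts of the photosynthetic electron transport chain or chlorophyll-binding proteins, all had the lower mean in OX*OsAFB6*, as did 79.8% of all listed genes. Their summed normalized read counts were 2261 for OX-A, 2711 for OX-B, 7612 for Con-A and 6758 for Con-B, the order seen in *HOX12* and *HOX19*. Not every green tissue gene had this order. OS07G0141400 was higher in Con-B than in Con-A, and OS02G0197600 and OS01G0501800 were higher in OX-A than in OX-B, while the rest had it. The summed counts of the panicle meristem genes *LAX*, *MADS34* and *FL*, most of them from *FL*, were 7169 for OX-A, 7942 for OX-B, 2298 for Con-A and 3607 for Con-B. The part of green tissue or of the panicle stage in the HD-Zip ratios was not tested.

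The listed genes whose profile over the 4 libraries was most like that of each HD-Zip gene were found by the root mean square difference of log2 normalized read counts, each gene centred on its own mean, over 270 genes with reads in every library. Nearest to *ROC4* was OS03G0839200, a putative MATE efflux protein (difference 0.041), with normalized read counts of 264 for OX-A, 233 for OX-B, 56.4 for Con-A and 96.2 for Con-B. It was followed by OS06G0592500, a putative ethylene-responsive transcriptional coactivator (0.099), and OS07G0136300, described as uncharacterized (0.15). Nearest to *HOX12* were OS10G0401000, OS04G0683700 and OS09G0491740, none with a described function, at differences from 0.10 to 0.15. The first of them shared the wide gap between OX-A, at 201 normalized reads, and OX-B, at 369, with 849 for Con-A and 759 for Con-B.

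*HOX1* was most like OS10G0442400 (difference 0.043), OS03G0116700, described as an F-box family protein (0.090), and OS06G0663800, described as a peptidyl-prolyl cis-trans isomerase (0.096). *HOX19* was most like OS06G0634700, which has no description (0.078), OS07G0119300, described as a putative cytoskeletal protein (0.090), and OS08G0463500, a putative zinc finger protein (0.11). Of these, OS06G0634700 and OS08G0463500 had low counts, between 9.90 and 13.1 in OX-A and OX-B. No HD-Zip gene was among the nearest genes of another. The closest such pair was *HOX12* and *HOX1*, at a difference of 0.31, where *HOX1* ranked 34th in likeness to *HOX12* and *HOX12* ranked 121st in likeness to *HOX1*. Profiles over 4 libraries are dominated by the contrast of the genotypes, for which all of these genes were listed.

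**Figure D4:**
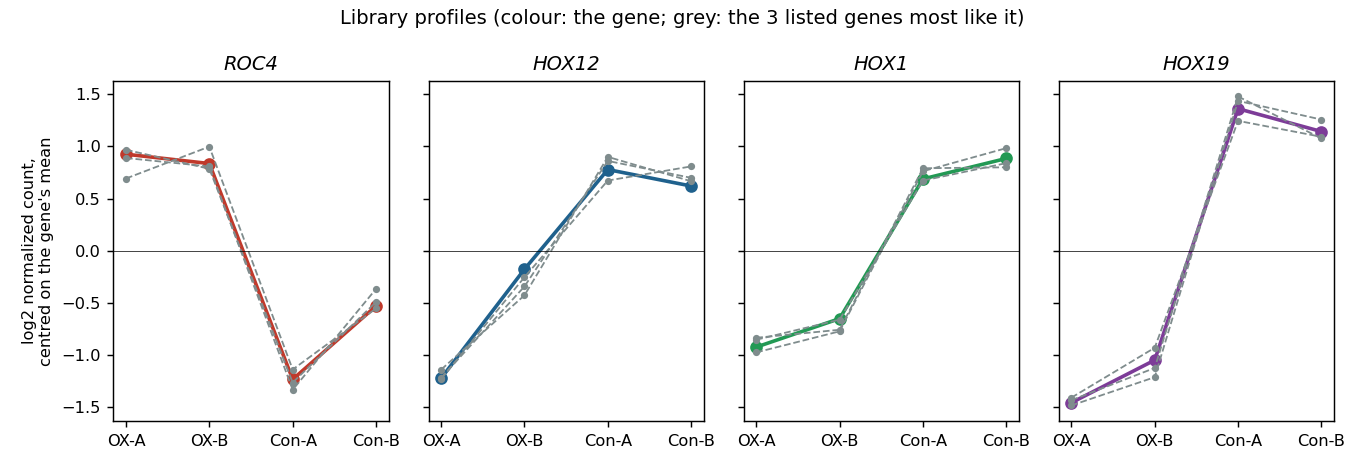
Log2 normalized read count centred on the gene's mean, in the libraries OX-A, OX-B, Con-A and Con-B. The coloured line is the HD-Zip gene and the dashed grey lines are the 3 listed genes most like it. *HOX12* and its nearest genes step up from OX-A to OX-B (433 and 893 for *HOX12*), and *HOX1* rises slightly from A to B in each genotype (103 and 124, and 314 and 360.3).

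Homeobox genes of other classes were described in 2 more rows, 1 in each direction. *WOX2* (OS05G0118700, chromosome 5), described as WUSCHEL-related homeobox, had 1216 reads in OX-A, 1308 in OX-B, 185 in Con-A and 517 in Con-B, and a log2 ratio of 1.67. Like *ROC4*, it was lowest in Con-A, at 209 normalized reads against 529 for Con-B. This is common, as Con-A stood above Con-B in only 7 of 57 resolved genes with a higher mean (12.3%). The paper lists *WOX3* as upregulated, and whether it is the same gene as *WOX2* was not checked. OS03G0732100 on chromosome 3, described as the homeodomain protein JUBEL1 after a barley gene of the BELL class, had 8 reads in OX-A, 26 in OX-B, 108 in Con-A and 94 in Con-B, and a log2 ratio of -2.83. It shared the library order of *HOX12* and *HOX19*.

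Among the transcription factors of the table, found by their descriptions, 7 of 21 had the higher mean in the mutant and 14 the lower, beside 20.2% and 79.8% of all listed genes, and the 4 HD-Zip genes are among them. Their median log2 ratio was -1.60, and they ran from -2.83 to 1.82. *HOX19* was thus near the lower end and *ROC4* near the upper end, where it stood next to *LAX*. Of the 6 genes described by auxin, 5 had the lower mean in the mutant, a share close to the 79.8% of all listed genes. Among them were the auxin efflux carrier gene *PIN4* with a log2 ratio of -2.52, close to that of *HOX19*, and *DAO*, which encodes an enzyme of auxin oxidation, with -1.58, close to that of *HOX1*. The gene with the higher mean was the auxin signaling F-box row. In the paper, the downregulated auxin efflux gene is called *OsPIN5b*, and whether *PIN4* is the same gene was not checked.

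The names in RefSeq give a count of genes that carry a HOX or ROC number. HD-Zip genes under other names were not counted, so it is not the size of the family. In the annotation of assembly ASM3414082v1, 26 genes carried a HOX number and 9 a ROC number. Of these 35 genes, 4 were found in the table by name or description, 3 of the HOX and 1 of the ROC genes, and the chromosome was that of the identifier in each. The other 31 genes were not analysed here, so their ratios are unknown, and 47 rows of the table have no description. The share of all rice genes that the authors listed was not computed. The count therefore does not show whether genes with such names were listed more often than others.

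As the libraries of the genotypes did not overlap, leaving out a library could not turn the direction of a gene, and only the size of the ratio could move. When 1 library was left out at a time, the ratio ran on the log2 scale from 1.41 to 2.11 for *ROC4*, from -1.92 to -0.88 for *HOX12*, from -1.71 to -1.44 for *HOX1* and from -2.71 to -2.30 for *HOX19*. The ranges of *HOX12* and *HOX1* overlapped, and that of *HOX19* overlapped neither.

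**Figure D5:**
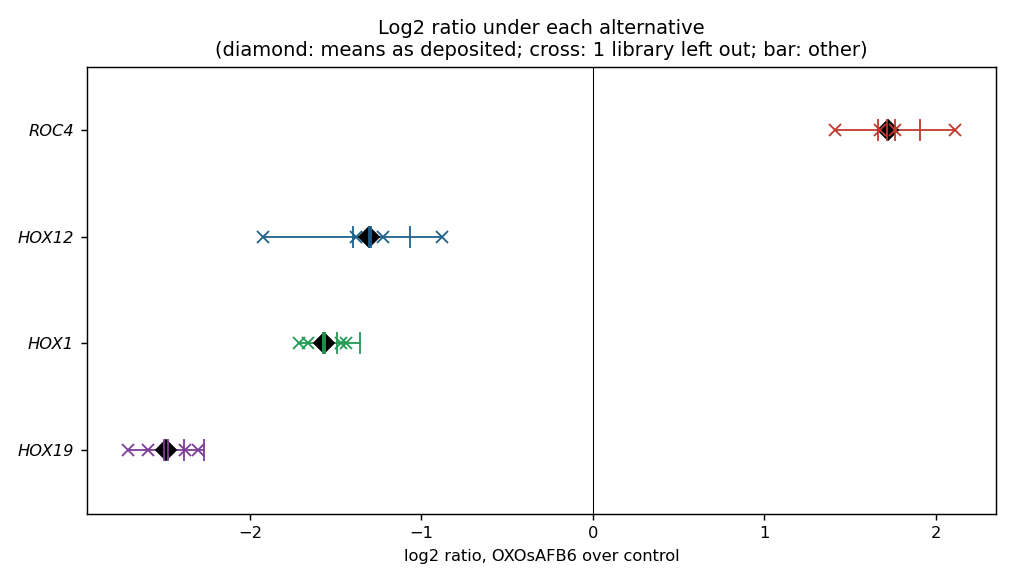
Log2 ratio, OX*OsAFB6* over control, of each HD-Zip gene from the means (black diamond), with 1 library left out (crosses) and under pseudocounts, no size factors or a geometric mean (bars). *HOX12* has the widest range, from -1.92 to -0.88. That no value crosses 0 follows from libraries that do not overlap.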

How the data were processed

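RNA of young panicles was sequenced by a company, in 2 libraries per genotype. The processing notes of the submitters name Bowtie 0.12.2 and the builds mm8, a mouse build, and IRGSP-1.0, a rice build, with no role given. The counting tool and the test are not given in the sources used here. The deposited table is headed RPKM, but its values are a signal made by the authors, the mean over 2 libraries of reads divided by a size factor, since 1 read adds the same amount to every gene. Its columns of fold changes, p-values and adjusted p-values were not used.

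The calculations used pandas 2.3.3 and numpy 2.4.6 under Python 3.11.15, and scipy 1.17.1 for intervals. A mean, printed to 10 significant digits, was resolved into reads when a single pair of whole numbers matched it to the last digit, with an allowance of 4 standard errors for the fitted size factors. On simulated means modelled on the mutant and on the control plants, the true reads came back for 286 and 287 of 287 genes, and 0 genes came back with wrong reads. Log2 ratios are those of the means, with no pseudocount. Counting intervals are exact binomial intervals at 95%, and as PCR reads are not independent molecules they cover counting error only.

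As the table is limited to selected genes, no test between genotypes was made. The genes named are the 4 HD-Zip genes, other listed homeobox genes, the 3 genes nearest to each in profile, and genes of lists matched by description. *PIN4*, *DAO*, *LAX*, *MADS34* and *FL* stand for such lists. The genes and lists were chosen with earlier results of these data known. No gene or protein sequences and no coordinates were used. Alternatives were pseudocounts of 1 and 10, no size factors, geometric means, each library left out, minimum means of 10 and 100, a rounding tolerance 2 times wider, and likeness by ratio alone.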

Additional observations from a re-analysis of the deposited data

How the results depend on the processing

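Over 32 alternatives to the log2 ratios of the 4 HD-Zip genes, 29 moved the value by less than 1 SD between libraries. None could be expected to reverse a direction, because the libraries of the genotypes did not overlap in these genes and scaling moves all genes alike. Where a library was left out, the shift and the SD both come from the same gaps between libraries. A shift above 1 SD was therefore unlikely beforehand, and the count of 29 does not measure how stable the sizes are. Without Con-B, *ROC4* moved from 1.72 to 2.11 (range over the libraries left out 1.41 to 2.11). Without OX-B, *HOX12* moved from -1.31 to -1.92 (range -1.92 to -0.88). With reads not divided by size factors, *HOX1* moved from -1.57 to -1.36, and the median log2 ratio of all resolved genes with reads shifted by 0.21 in the same direction, so that this alternative moves the whole table. Minimum means of 10 and 100 left 263 and 157 genes, of which 79.5% and 80.3% were lower in the mutant, and kept all 4 HD-Zip genes. A wider tolerance left the reads of all 4 genes resolved. Likeness by the ratio alone gave only 1 of the 12 nearest genes again, so these names depend on the measure. No paired analysis was possible because the deposited columns are means that carry no replicate numbers. Depth limits *HOX19* and *HOX1* most, with 225 and 246 reads in OX-A and OX-B together.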

Other observations

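Both *HOX12* and *HOX19* lie on chromosome 3, which by its locus name also holds *OsAFB6* and the inserted vector. Of all listed genes, 47 of 287 (16.4%) have an identifier on chromosome 3. The homeobox gene described as JUBEL1 lies there too, whereas *ROC4*, *HOX1* and *WOX2* lie on other chromosomes. The paper reports that in seedlings *OsAFB6* alone was raised among the genes near the insertion. A link between the insertion and the HD-Zip genes was not tested.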
